A study of Mus musculus with 6 samples.

Results

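The 7 enzymes of the mouse pentose phosphate pathway were followed by RNA-seq in embryo-like aggregates with and without perfluorooctanoic acid. They were taken by symbol from the deposited expression table, which lists 18388 genes: G6pdx, Pgls and Pgd of the oxidative branch, and Rpia, Rpe, Tkt and Taldo1 of the non-oxidative branch. The table writes symbols in upper case (G6PDX, PGLS, PGD, RPIA, RPE, TKT and TALDO1). All 7 were found, and all 7 passed the filter on low values that left 11876 genes for testing. The samples were aggregates of mouse expanded pluripotent stem cells, grown to resemble the morula, the stage at which the early embryo compacts. Libraries came from 3 samples treated with PFOA (perfluorooctanoic acid, a long-lived industrial fluorochemical) and 3 treated with vehicle (DMSO). Per the labels, all 6 were kept in N2B27LCDM medium and then in an induction medium, at 37 °C, 5% CO2 and 20% O2, and neither the PFOA dose nor the exposure time is given in the sources used here. The series title concerns c-MYC and compaction of the embryo, and the design compares PFOA with vehicle. Nothing in the labels says that replicates were separate cultures, so the tests speak of the spread between libraries, which could be technical.

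The pentose phosphate pathway leaves glycolysis at glucose 6-phosphate. Its oxidative branch makes NADPH, the reducing agent of fatty acid and sterol synthesis and of glutathione recycling, and ends in ribulose 5-phosphate. Its non-oxidative branch turns that sugar into ribose 5-phosphate, the backbone of nucleotides, and exchanges carbon units with glycolysis in both directions. Fast-dividing pluripotent cells draw on both products, and several genes of the pathway are textbook targets of the oxidative stress factor NRF2, which binds the antioxidant response element.

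The promoters of the 7 enzymes were searched for short motifs, and 5 stretches are shown. The first, of G6pdx, holds an antioxidant response element core before the start site. The next 3 are from the enzymes with the largest differences between the groups (Taldo1, Rpe and Pgls). The last is from Tkt, which differed little. The RefSeq table (GRCm38.p6, whereas the submitters' processing notes name GRCm39) gave a promoter of 300 bases, 250 before and 50 from the start site on, for 7 of 7 enzymes, with 2 starts for Pgd. The stretches of 60 bases below run 5′ to 3′ on the strand of the gene. Capitals mark the antioxidant response element core in G6pdx and the GC box, a common binding site of SP1, in the others.
G6pdx: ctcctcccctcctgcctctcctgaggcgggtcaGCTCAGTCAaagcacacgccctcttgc
Taldo1: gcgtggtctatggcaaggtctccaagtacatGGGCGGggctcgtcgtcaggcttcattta
Rpe: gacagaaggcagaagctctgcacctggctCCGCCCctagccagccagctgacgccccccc
Pgls: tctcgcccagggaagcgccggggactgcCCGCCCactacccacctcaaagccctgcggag
Tkt: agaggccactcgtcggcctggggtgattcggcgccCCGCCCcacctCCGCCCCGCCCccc
They lie at chrX:74428911-74428970 (minus strand), chr7:141392080-141392139 (plus strand), chr1:66700681-66700740 (plus strand), chr8:71591984-71592043 (plus strand) and chr14:30549071-30549130 (plus strand) for G6pdx, Taldo1, Rpe, Pgls and Tkt. Both strands were searched. The response element core, TGACNNNGC, was found in G6pdx, on the opposite strand 57 bases before the start, and in the second Pgd promoter just after its start; 12.4% of all 32851 promoters of the same length hold it. The E-box CACGTG, the site MYC binds with MAX, was found in 0 of the 7 enzymes' promoters, against 7.15% of all promoters. The GC box GGGCGG, a motif chosen after the data were seen, was found in 7 of 8 promoters and so in each of the 7 enzymes, against 35.7% of all. Tkt held 5 of these, of which 3 fall in the stretch shown and the last 2 of those share 1 base. Matches of the response element and the GC box did not overlap, and a match is a run of letters, not a measured binding site.

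The deposited unit is FPKM, fragments per kilobase of transcript scaled to the library's mapped fragments, and the sum over all genes was 641975 to 657239 in DMSO and 585739 to 630644 in PFOA. The depth of the libraries is unknown. Aggregates expressed the pluripotency markers in every library (the 10 markers summed to 4665 to 4880 FPKM in DMSO and 4032 to 4517 in PFOA). Of these 10 markers 5 were higher and 5 lower in PFOA, with a median log2 fold change of 0.019. The most abundant of them, Dppa5a, averaged 2239 FPKM in DMSO and 1952 in PFOA. Trophectoderm markers summed to 510.4 to 583 with DMSO and 495 to 564 with PFOA, 3 of 6 tested being higher and 3 lower. Most of these sums came from the keratin genes Krt8 (means of 223 in DMSO and 207 in PFOA) and Krt18 (270 and 271). Tfap2c averaged 26.8 and 27.7, and Cdx2, Gata3, Eomes and Elf5 averaged at most 7.06 FPKM in either group. Primitive endoderm markers summed to at most 4.92 FPKM. Fibroblast or feeder cell markers summed to 21.1 to 26.0 in DMSO and 18.8 to 20.4 in PFOA, none of the 8 was at 0 in any library, and all 6 tested were lower in PFOA. The part of these cells in the results below was not tested. In bulk RNA, fewer cells of a type and less RNA per cell cannot be told apart.

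Expression differed widely between the steps of the pathway. Levels are compared per length, as FPKM. Taldo1 (transaldolase) was the most abundant, above 95.3% of the genes tested, followed by Tkt (transketolase, 94.7%) and Pgd (6-phosphogluconate dehydrogenase, 94.4%). Pgls (6-phosphogluconolactonase) and G6pdx (glucose 6-phosphate dehydrogenase, the entry enzyme of the pathway) came next, above 89.7% and 87.7%. Rpe (ribulose phosphate epimerase) stood above 67.9%, and Rpia (ribose 5-phosphate isomerase) above 38.4% of the genes. Tkt and Pgd could not be ordered, since their ranges overlapped in both groups. Pgls and G6pdx were apart in DMSO and overlapped in PFOA. The other neighbours in this order did not overlap in either group.

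All 7 enzymes had a lower mean in PFOA than in DMSO, where 52.4% of all tested genes were lower, and 0 of 7 passed the test across all genes (limma on log2(FPKM + 1), Benjamini-Hochberg adjusted p under 0.05). Of all tested genes 0.00842%, or 1 gene, passed. With an unadjusted p under 0.05 in limma, 4 of 7 were lower and 0 higher, beside 12.5% of all genes lower and 8.56% higher. That count of 4 became 0 with equal summed FPKM, and 2 with a length trend removed and without DMSO 1, DMSO 2 or PFOA 1. The groups did not overlap for 2 of 7, Taldo1 and Rpe, beside 13.7% of all genes that were lower in this way and 13.5% that were higher. The enzymes' median log2 fold change was −0.097, and that of all genes tested −0.0065. The differences ran from −1.7% to −13.7%.

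**Figure D1:**
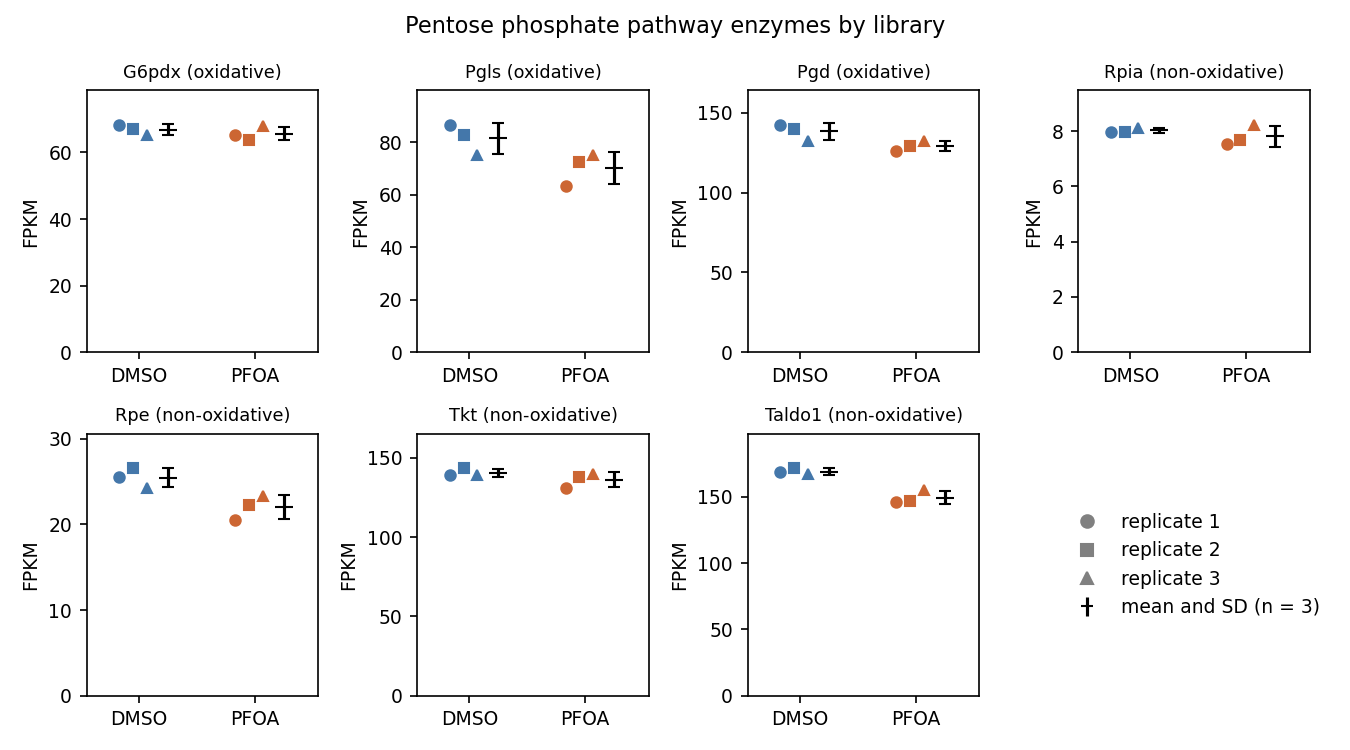
FPKM of each enzyme in the 3 DMSO and 3 PFOA libraries (points, shaped by replicate number) with the mean and SD beside them; each vertical axis starts at 0. The PFOA points of Taldo1 and Rpe lie below all DMSO points, while those of the other 5 enzymes overlap them.

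In the oxidative branch, G6pdx, which commits glucose 6-phosphate to the pathway, was measured in the DMSO libraries 1 to 3 at 68.4, 67.0 and 65.1 FPKM, and in the PFOA libraries 1 to 3 at 65.3, 63.8 and 68.0. The groups overlapped, with PFOA 3 second only to DMSO 1. The means were 66.8 ± 1.6 and 65.7 ± 2.1 (SD, n = 3 each), a log2 fold change of −0.025 whose 95% confidence interval was −0.113 to 0.064 (limma adjusted p = 0.746). The interval runs from a loss of 7.6% to a gain of 4.5%.

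Pgls, which opens the lactone made by G6pdx, was 86.7, 82.6 and 75.0 FPKM in DMSO and 63.4, 72.3 and 75.1 in PFOA. It varied most between libraries of a group (coefficient of variation 7.27% and 8.72%), and PFOA 3 reached DMSO 3. The log2 fold change was −0.21 (95% confidence interval −0.377 to −0.046, limma adjusted p = 0.169), from 81.4 ± 5.9 to 70.2 ± 6.1 (SD, n = 3 each). This was the largest difference of the 7, and it did not pass the test. Without PFOA 1, its lowest library, the log2 fold change was −0.14.

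Pgd, the second NADPH-making step, was 143, 140.2 and 132 FPKM in DMSO and 126, 129 and 133 in PFOA. Here too PFOA 3 stood just above DMSO 3, and the other libraries kept apart. Means of 138 ± 5.5 and 129 ± 3.3 gave a log2 fold change of −0.097 (SD, n = 3 each; 95% confidence interval −0.192 to −0.003, limma adjusted p = 0.227). Both NADPH-making enzymes thus missed the threshold, and G6pdx differed by less than the SD of either group.

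In the non-oxidative branch, Rpia, which makes ribose 5-phosphate, was 7.98, 7.99 and 8.13 FPKM in DMSO and 7.53, 7.68 and 8.24 in PFOA. PFOA 3 was the highest of the 6 libraries and PFOA 1 the lowest, so the groups overlapped. The log2 fold change was −0.036 (95% confidence interval −0.155 to 0.083, limma adjusted p = 0.725).

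Rpe, which turns ribulose 5-phosphate into xylulose 5-phosphate, the sugar that transketolase uses, was 25.6, 26.6 and 24.3 FPKM in DMSO and 20.5, 22.3 and 23.3 in PFOA. No PFOA value reached the lowest DMSO value. Means of 25.5 ± 1.2 and 22.0 ± 1.4 (SD, n = 3 each) differed by −0.20 on the log2 scale (95% confidence interval −0.33 to −0.074, limma adjusted p = 0.136), and the threshold was missed.

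Tkt, which moves 2-carbon units between sugars, was 139, 144 and 139 FPKM in DMSO and 131, 138 and 139.9 in PFOA. PFOA 1 and PFOA 2 were below the DMSO range and PFOA 3 was inside it. The log2 fold change was −0.046 (95% confidence interval −0.133 to 0.041, limma adjusted p = 0.513).

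Taldo1, which moves 3-carbon units between sugars, was 169, 172 and 167 FPKM in DMSO and 146, 147 and 155 in PFOA. Each PFOA library was below each DMSO library. The log2 fold change was −0.18 (SE 0.037, 95% confidence interval −0.264 to −0.093, limma adjusted p = 0.115), the smallest p of the 7. No alternative processing brought Taldo1 or another of the 7 enzymes past the threshold, and the lowest adjusted p for Taldo1 was 0.082, with library weights in limma (range over 15 alternatives 0.082 to 0.356).

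**Figure D2:**
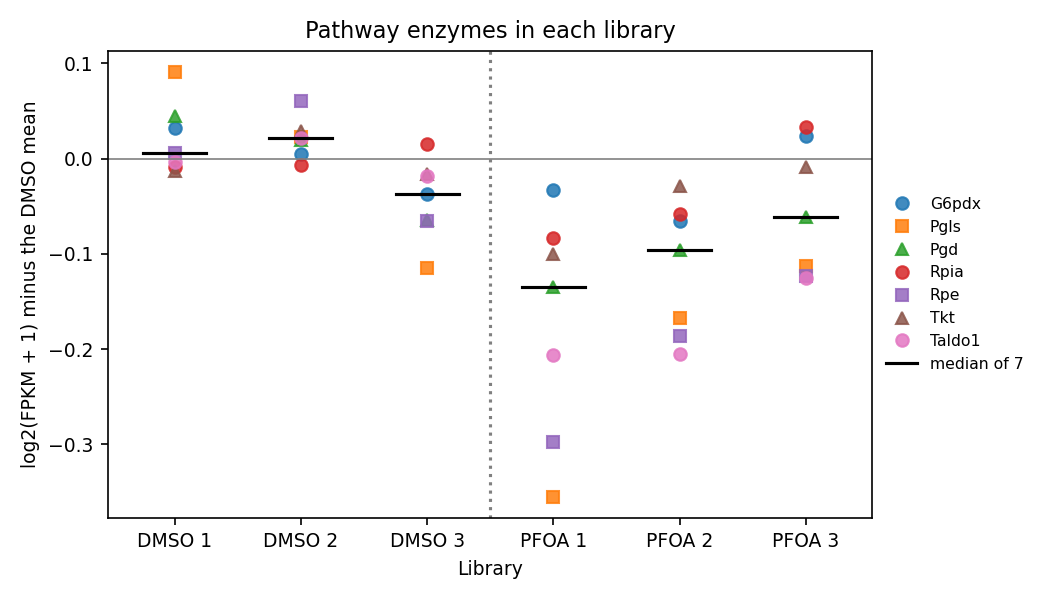
log2(FPKM + 1) of each enzyme in each library minus its mean over the DMSO libraries, with the median of the 7 as a black bar. For DMSO 1 to 3 the medians are 0.006, 0.022 and −0.037, for PFOA 1 to 3 they are −0.135, −0.096 and −0.061, with Pgls and Rpe lowest in PFOA 1.

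The libraries were not equally far apart. PFOA 1 was the lowest of the 6 libraries for 6 of 7 enzymes (all but G6pdx), and PFOA 3 was the highest PFOA library for 7 of 7. The sum of FPKM over all genes was also lowest in PFOA 1, at 585739. As a share of that sum the pathway was 0.0956% in PFOA 1, within the DMSO range of 0.0952% to 0.0976%, and lowest in PFOA 2, at 0.0919%. DMSO 3 was the lowest DMSO library for 6 of 7 enzymes (all but Rpia), and for 5 of 7 it stood at or below the highest PFOA library. The median per library, relative to the DMSO mean, was −0.135 in PFOA 1 and −0.037 in DMSO 3. Without DMSO 3 the enzymes' median log2 fold change was −0.13, and without PFOA 1 it was −0.078.

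For the enzymes with small differences, the direction depended on the scaling. FPKM summed to less in the PFOA libraries, and when every library was set to the same sum, the median of all genes moved from −0.007 to 0.071. The enzymes' median then became −0.010 and 4 of 7 were lower, with G6pdx, Rpia and Tkt higher. Of all genes tested, 27.5% were lower with equal sums, against 52.4% as deposited. The difference between the enzymes' median and that of all genes was −0.091 as deposited and −0.081 with equal sums. It shrank to −0.053 with quantile normalization and to −0.053 with a length trend removed. Among all genes with an unadjusted p under 0.05 (limma), 1016 were higher and 1489 lower as deposited, 2506 and 500 with equal sums, and 1362 and 1114 with quantile normalization. The log2 fold changes of Taldo1, Rpe, Pgls and Pgd were below 0 in all 15 alternatives. With equal sums they were −0.091, −0.118, −0.125 and −0.010, none with an unadjusted p under 0.05 (limma).

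The fold change differed between genes of different transcript length. The part of length in the enzymes' differences was not tested beyond the values below. Lengths are those of the longest coding transcript in GENCODE M21. Among 2380 tested genes of at least 1000 and under 2000 nt, the class of Pgls (1062 nt), Taldo1 (1362 nt) and Rpia (1829 nt), the median log2 fold change was −0.091 and 81.9% were lower in PFOA. Among 4655 genes of at least 2000 and under 4000 nt, which hold Pgd (2218 nt), G6pdx (2652 nt), Rpe (2713 nt) and Tkt (3223 nt), it was −0.013, with 57.0% lower. With a trend on length removed in each library, Taldo1 went from −0.18 to −0.089 (95% confidence interval −0.165 to −0.012, limma adjusted p = 0.317) and Pgls from −0.21 to −0.095 (−0.216 to 0.026, limma adjusted p = 0.467). Rpe was at −0.20 before and −0.19 after the removal (−0.312 to −0.074, limma adjusted p = 0.23). Rpia turned to 0.020, and Pgd, Tkt and G6pdx were at −0.065, −0.056 and −0.013. After that removal the groups did not overlap for 3 of 7 enzymes, Rpe, Tkt and Taldo1. Beside them, 12% of all tested genes were lower without overlap in the same values. The margin of Tkt was small: relative to its DMSO mean, the highest PFOA value was −0.020 and the lowest DMSO value −0.016. Its 95% confidence interval was −0.138 to 0.025.

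**Figure D3:**
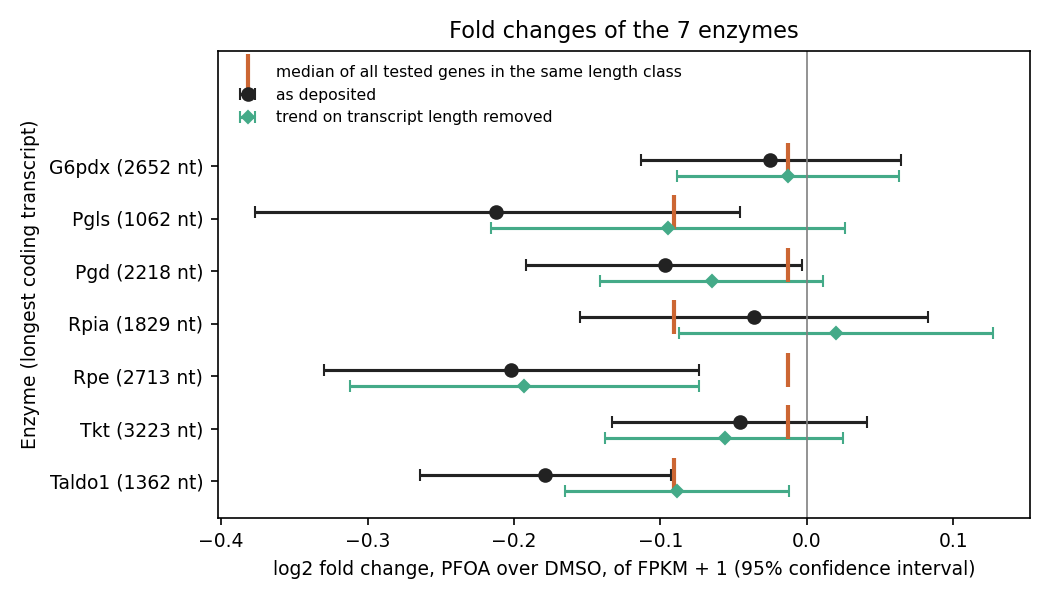
log2 fold change of each enzyme with its 95% confidence interval, as deposited (black circles) and with a trend on transcript length removed (green diamonds); the orange bar is the median of all tested genes of the same length class. The intervals of Taldo1, Rpe, Pgls and Pgd lie below 0 as deposited, and those of Rpe and Taldo1 still do with the trend removed.

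Ratios of enzymes within a library do not depend on its scaling. As a description, 3 pairs that follow each other or share substrates were taken after the data were seen. In each pair the first-named enzyme had an unadjusted p under 0.05 in limma and the second did not. Separation of the groups was thus partly built into the choice. The share of all gene pairs that separate in this way was not computed. Taldo1 over Tkt was 1.209, 1.196 and 1.199 with vehicle and 1.115, 1.063 and 1.108 with PFOA, without overlap. Rpe over Rpia, the pair that shares ribulose 5-phosphate, was 3.203, 3.327 and 2.986 against 2.725, 2.898 and 2.828, again without overlap. Pgd over G6pdx was 2.087, 2.091 and 2.031 against 1.927, 2.026 and 1.950, apart by a small margin. With the length trend removed, the log2 difference in Taldo1 over Tkt went from −0.133 to −0.032 and the groups overlapped. It went from −0.073 to −0.052 for Pgd over G6pdx, also with overlap, and from −0.166 to −0.213 for Rpe over Rpia, where the groups stayed apart.

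The share of the 2 branches overlapped between the groups. The oxidative enzymes made up 46.6%, 45.3% and 44.6% of the pathway's summed FPKM in DMSO and 45.4%, 45.8% and 45.8% in PFOA. The PFOA values lay within the DMSO range, and the mean difference was 0.17 percentage points. The whole pathway summed to 639, 639.7 and 611 FPKM in DMSO and 560.2, 579.9 and 602 in PFOA, without overlap. As a share of all FPKM it was 0.0952% to 0.0976% and 0.0919% to 0.0966%, which overlap.

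Some reads of these genes may be shared with others, depending on how the authors counted. In GENCODE M21, 19.1% of the 50-nt words of Rpe lie in Kansl1l, which overlaps it on the opposite strand, 10.9% of those of Taldo1 in Gm17823, and 10.7% of those of G6pdx in G6pd2 or Ikbkg, the latter on the opposite strand. Pgd, Pgls, Rpia and Tkt shared 0 such words. The gene body of Pgls nevertheless overlaps that of the protein-coding gene Fam129c on the same strand. That of Tkt overlaps the microRNA gene Mir3076, also on the same strand. Kansl1l was 1.06 to 1.38 FPKM and Ikbkg 2.94 to 3.34, well under Rpe and G6pdx in every library. Whether the counting used strand is not given in the sources used here.

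Genes next to the pathway lay on both sides of 0. Of 14 listed neighbours 13 were in the table and 10 were tested: 6 were higher and 4 lower in PFOA, with a median of 0.005, and 0 passed in limma (0 higher and 2 lower with an unadjusted p under 0.05). The transketolase-like genes Tktl1 and Tktl2 and the sedoheptulose kinase Shpk stayed under 1 FPKM in every library. H6pd, the endoplasmic reticulum counterpart of G6pdx, was 4.65 ± 0.14 with vehicle and 4.68 ± 0.13 with PFOA (SD, n = 3 each). Prps1, which activates ribose 5-phosphate to PRPP for nucleotide synthesis, was 50.9 ± 1.2 and 51.1 ± 1.2. The smallest p-values were those of Prpsap2 and Prpsap1, which associate with PRPP synthetase, and of the gluconate kinase Idnk. Prpsap2 was 25.6, 28.1 and 26.2 FPKM in DMSO and 24.4, 24.6 and 23.4 in PFOA, without overlap (limma adjusted p = 0.170).

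Other sources of NADPH also lay on both sides of 0: of 9 tested, 5 were higher and 4 lower, with a median of 0.004, and 0 passed in limma (0 in either direction with an unadjusted p under 0.05). The isocitrate dehydrogenases had the smallest p-values, with the mitochondrial Idh2 at 71.9 ± 0.90 FPKM in DMSO and 68.3 ± 2.7 in PFOA and the cytosolic Idh1 at 46.4 ± 1.4 and 44.1 ± 1.6 (SD, n = 3 each). The NAD kinase Nadk, which makes the NADP pool, was 54.5 ± 1.6 and 52.0 ± 1.6. Of the NADPH-using enzymes 9 of 12 were lower (median −0.069), with 0 past the threshold (limma; 2 higher and 5 lower with an unadjusted p under 0.05). The biliverdin reductase Blvrb had the smallest p among them: it was 68.9, 75.6 and 73.6 FPKM in DMSO and 52.4, 65.9 and 59.0 in PFOA (log2 fold change −0.30, limma adjusted p = 0.128). The aldose reductase Akr1b3 was 291 ± 5.9 and 262 ± 16, and Nqo1, a quinone reductase and NRF2 target, 30.7 ± 0.90 and 28.2 ± 0.61 (SD, n = 3 each). Glutathione reductase, Gsr, which takes up NADPH to recycle glutathione, was 44.5 ± 1.3 and 43.7 ± 0.28.

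**Figure D4:**
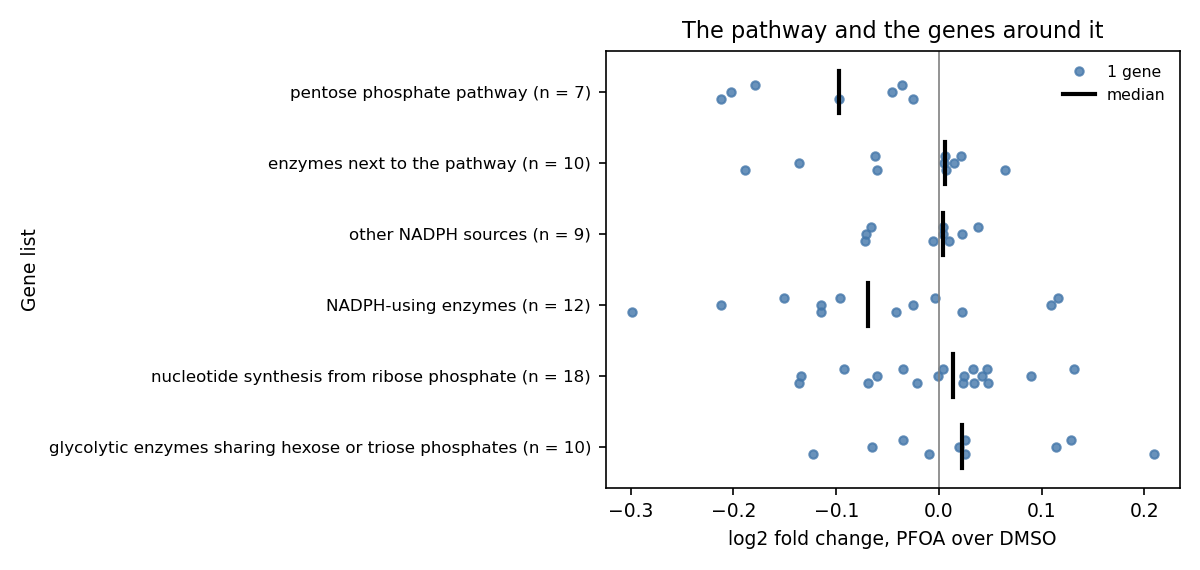
log2 fold change of each tested gene (points) and the median (black bar) for the 7 enzymes and 5 lists of genes around them; points are spread vertically for legibility. The medians are −0.097 for the 7 enzymes, −0.069 for the NADPH-using enzymes and from 0.004 to 0.022 for the other 4 lists.

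Among genes of nucleotide synthesis, a process that draws on ribose 5-phosphate, 10 of 18 were higher and 8 lower. Their median was 0.013 and 0 were past the threshold in limma (1 higher and 2 lower with an unadjusted p under 0.05). Dhodh, of pyrimidine synthesis, was 21.1 ± 0.57 FPKM in DMSO and 19.1 ± 0.75 in PFOA. Of purine synthesis, Pfas was 38.8 ± 2.1 and 42.6 ± 1.5, and Paics 283 ± 4.1 and 265 ± 6.8 (SD, n = 3 each). Ppat, which commits PRPP to purines, was 61.9 ± 0.78 and 62.1 ± 1.2. Of 10 glycolytic genes that handle the hexose or triose phosphates of the pathway, 6 were higher and 4 lower, with a median of 0.022 and 0 past the threshold (limma; 1 higher and 0 lower with an unadjusted p under 0.05). The gene with the smallest p there was Hk2, the hexokinase that makes glucose 6-phosphate, at 28.0, 29.5 and 31.3 FPKM in DMSO and 36.7, 33.4 and 33.0 in PFOA (log2 fold change 0.21, limma adjusted p = 0.134; transcript of 5513 nt). Its groups did not overlap. Aldoc was 4.43 ± 0.38 and 4.93 ± 0.064, and Pfkp 25.5 ± 0.64 and 27.8 ± 2.3. None of these lists was tested against the pathway, so a difference between them is not claimed.

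The profile of Taldo1, the enzyme with the smallest p, was set beside 6584 tested genes with a mean of at least 10 FPKM, by the root mean square difference between log2(FPKM + 1) profiles centred over the 6 libraries. The closest were the mitochondrial ribosomal protein gene Mrpl23 (0.0135), Cdk2ap2 (0.0189) and the endoplasmic reticulum peroxiredoxin gene Prdx4 (0.0197), with transcripts of 736, 1080 and 990 nt. Mrpl23 was 92.5, 92.7 and 91.1 FPKM in DMSO and 80.2, 81.3 and 83.9 in PFOA. Of the other pathway enzymes at this level, Rpe was the closest, at rank 194, followed by Pgd at 358, Tkt at 1151, G6pdx at 1736 and Pgls at 1895.

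**Figure D5:**
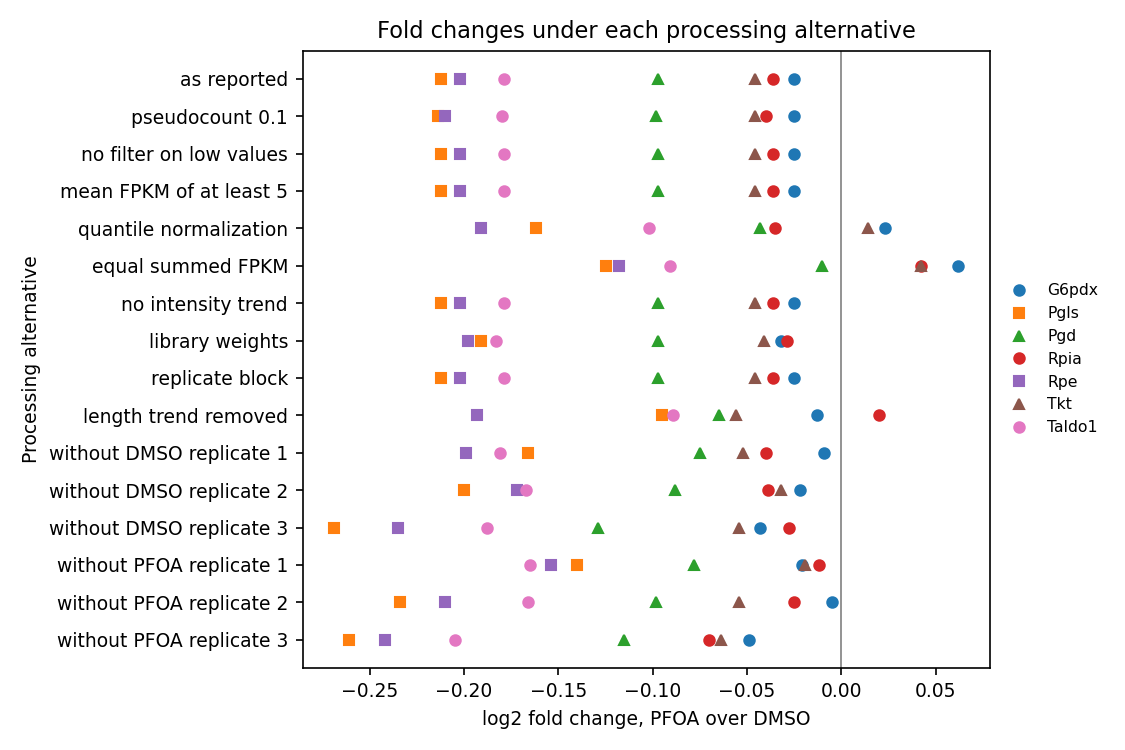
log2 fold change of the 7 enzymes as reported and under 15 processing alternatives, 1 row each. Pgls, Rpe, Taldo1 and Pgd stay below 0 in all of them, while G6pdx, Rpia and Tkt are above 0 with equal summed FPKM, G6pdx and Tkt also with quantile normalization and Rpia also with the length trend removed.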

How the data were processed

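Polyadenylated RNA from 6 libraries (1.2 µg of total RNA each, integrity number above 8.0) was sequenced on a BGISEQ-500, per the labels' protocols. The authors deposited FPKM to 2 decimals, with each library in its own column. HISAT2 2.0.4, Bowtie2 2.2.5 and the build GRCm39 appear in the submitters' processing notes; counting tool and annotation: not given in the sources used here. Low values were whole multiples of a gene's smallest value (within 0.15) in 33.3% of cases, near the 30% of any number. The smallest value was taken across libraries of unknown depth. The check could thus not decide whether whole reads were recoverable. Count models were not used, since the values are FPKM.

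FPKM was taken to log2 with a pseudocount of 1. Genes averaging at least 1 FPKM entered limma 3.58.1 (under R 4.3.3; intensity trend in the variance prior, two-sided), with Benjamini-Hochberg adjustment over all 11876 genes; fold changes on this scale understate those of low genes. The fit was tested on simulated data. Groups came from the sample titles. The members and lists were chosen with earlier results of these data known. Besides the 7 enzymes, up to 3 genes per list with the smallest p were named, and a few others of known role after their values were seen. Alternatives changed the pseudocount, filter, scaling, variance prior, weights, block, length trend and libraries. Python 3.11.15 made the summaries. Of the upper-case symbols, 18234 matched mouse names.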

Additional observations from a re-analysis of the deposited data

How the results depend on the processing

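The 7 enzymes missed the threshold in limma in each of 15 alternatives. Direction changed for G6pdx (0.023 with quantile normalization, 0.062 with equal summed FPKM), Tkt (0.014 and 0.042 in the same order) and Rpia (0.042 with equal summed FPKM, 0.020 with the length trend removed). The cause was not tested beyond what these scalings do to all genes. The enzymes' median log2 fold change was −0.043 with quantile normalization and −0.010 with equal summed FPKM; leaving out 1 library each gave −0.129 to −0.075. Over all genes, those called lower were 1 as reported, 0 without the filter, without the intensity trend, with the length trend removed and with the replicate block, and 2 with library weights. Leaving out 1 library each gave 0 to 91 lower and 0 to 13 higher; the extremes were the fits without PFOA 2 (91 lower and 3 higher) and without DMSO 3 (39 and 13). The difference in the oxidative share, PFOA minus DMSO, was 0.174 percentage points as reported, 1.10 with Tkt left out of the sums and −0.705 with Taldo1 left out; leaving out 1 library each gave values of −0.279 to 0.715, −0.279 without DMSO 3. No pairing by replicate number was seen. Deviations of same-numbered libraries correlated at −0.107, −0.010 and −0.138 across genes, and no library correlated best with its own number. Such correlations cannot tell how the libraries were prepared. With the replicate block Taldo1 had a log2 fold change of −0.179 (limma adjusted p = 0.205) and no enzyme changed its call. Library depth is unknown, and 3 libraries a group resolved a median 95% half-width of 0.14 on the log2 scale.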
